A study of Mus musculus with 2 samples.

Results

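The 4 TEAD transcription factor genes of the mouse, *Tead1*, *Tead2*, *Tead3* and *Tead4*, were described in gastrulating embryos together with *Yap1* and *Wwtr1*, which encode their coactivators YAP1 and TAZ, and with *Vgll4*. These 7 genes were taken by symbol from the 32285 genes of the deposited tables, and each symbol matched 1 row. Cells of E7 embryos had been pooled by genotype, dissociated and measured in 1 droplet library per genotype with unique molecular identifiers (UMIs), which count captured RNA molecules. The *Yap1* cKO pool held 3 Sox2-Cre:Yap1 flox/flox embryos, whose Cre driver recombines in the epiblast and its descendants and is not meant to act in the extraembryonic lineages. The control pool held 4 Sox2-Cre:Yap1 flox/+ embryos by the design text and the single-cell methods, although its label reads WT and the methods on mice describe floxed littermates without Cre. Control cells may therefore carry 1 functional copy of *Yap1*, and extraembryonic cells of both pools may be heterozygous. With 1 library per genotype, differences between embryos cannot be separated from the genotype, so no test was made between the libraries. The intervals given are exact 95% intervals that cover counting error only.

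TEAD proteins bind DNA but activate transcription poorly without a partner. YAP1 and TAZ enter the nucleus when the Hippo kinases are inactive and bind TEAD, whereas phosphorylation by LATS kinases keeps them in the cytoplasm. VGLL4 binds TEAD at an overlapping surface and counteracts YAP1. In the mouse, *Tead4* is known for its requirement in the trophectoderm of the blastocyst, and *Tead2* for its expression from the earliest embryonic stages.

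The core DNA motif of the TEAD proteins is GGAATG, read as CATTCC on the opposite strand. It was searched on both strands in the 250 bases before the RefSeq start sites of the members (GRCm38.p6), to set this sequence beside the genes whose products bind it. Of the 7 members, *Yap1*, *Wwtr1*, *Tead2*, *Tead3* and *Vgll4* had an entry. The motif was in at least 1 window of 4 of these 5, against 14.4% of 27025 genes with an entry. The windows of both coactivators, of the TEAD gene with the most UMIs in the embryonic cells and of the antagonist are printed 5′ to 3′, with the motif in capitals.
*Yap1*, chr9:8004597-8004846, minus strand: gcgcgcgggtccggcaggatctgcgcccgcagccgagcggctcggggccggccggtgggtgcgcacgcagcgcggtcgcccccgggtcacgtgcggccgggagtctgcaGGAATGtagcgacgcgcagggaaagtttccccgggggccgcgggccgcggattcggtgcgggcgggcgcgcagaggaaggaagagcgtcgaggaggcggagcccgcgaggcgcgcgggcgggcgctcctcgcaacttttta
*Wwtr1*, chr3:57575911-57576160, minus strand: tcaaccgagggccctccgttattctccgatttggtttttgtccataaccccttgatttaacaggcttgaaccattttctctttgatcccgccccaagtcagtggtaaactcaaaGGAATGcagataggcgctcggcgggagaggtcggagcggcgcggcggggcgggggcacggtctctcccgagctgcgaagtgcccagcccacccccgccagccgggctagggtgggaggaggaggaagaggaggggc
*Tead2*, chr7:45215542-45215791, plus strand: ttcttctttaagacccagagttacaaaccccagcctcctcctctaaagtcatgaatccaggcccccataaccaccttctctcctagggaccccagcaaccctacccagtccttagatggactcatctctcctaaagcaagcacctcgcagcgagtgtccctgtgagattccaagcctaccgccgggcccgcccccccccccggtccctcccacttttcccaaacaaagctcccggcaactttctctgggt
*Vgll4*, chr6:114969204-114969453, minus strand: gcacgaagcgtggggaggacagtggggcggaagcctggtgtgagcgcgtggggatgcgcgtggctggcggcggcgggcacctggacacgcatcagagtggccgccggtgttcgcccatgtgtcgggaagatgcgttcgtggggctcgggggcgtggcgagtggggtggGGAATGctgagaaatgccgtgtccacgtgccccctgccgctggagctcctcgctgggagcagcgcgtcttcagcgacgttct
The motif began at -141 from the start site of *Yap1*, at -136 for *Wwtr1* and at -82 for *Vgll4*, and the letters were not in the *Tead2* window. *Tead3* had 3 windows, of which 1 held GGAATG at -182 and another held CATTCC at -123 and at -114. These matches describe the letters in the windows and were not tied to binding.

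The files give UMIs per gene, and the reads had been counted by cellranger over exons and introns of mm10, so long genes can collect more UMIs than short ones. *Tead1* (chr7:112679318-112906807) spans 227 kb, and *Wwtr1* (chr3:57455649-57575910) 120.3 kb. *Vgll4* (chr6:114860628-114969994) spans 109 kb, *Tead4* (chr6:128224288-128300823) 76.5 kb and *Yap1* (chr9:7931999-8004596) 72.6 kb. The shortest loci are *Tead3* (chr17:28331671-28350817) with 19.1 kb and *Tead2* (chr7:45215753-45233644) with 17.9 kb. Genes on the opposite strand overlap *Yap1*, *Tead1* and *Tead2*, each with at most 87 UMIs per library. Shares and ratios between different genes are given by UMIs and, beside this, after division by the length of the longest transcript (per length). This length is 9964 bases for *Tead1* and 3396 for *Tead2* and leaves out introns, so the division does not correct for the span. UMIs of a 3′ library count transcript ends, so the per length values are a second scale and not a corrected one.

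After filtering, 790 control and 860 *Yap1* cKO cells remained. A cell held 75696 UMIs at the median in the control (lowest 15974, highest 317876) and 80559 in the *Yap1* cKO (lowest 17169, highest 324147). They were gated into 10 populations by markers, each with at least 5 of its own markers past 1.5-fold against the other cells. Nearly all of these markers also set the gates, so their enrichment follows from the gating and is no check of identity. The populations held 254 and 227 epiblast-like, 50 and 103 primitive streak-like, 57 and 75 nascent mesoderm-like, 79 and 63 *Foxf1* and *Hand1* mesoderm-like and 25 and 25 blood and endothelial progenitor-like cells. They also held 20 and 17 node-like, 21 and 15 *Cer1*-high embryonic, 176 and 100 extraembryonic ectoderm (ExE)-like, 72 and 198 visceral endoderm (VE)-like and 19 and 23 anterior visceral endoderm (AVE)-like cells. The haemoglobin genes *Hbb-bs*, *Hbb-bt*, *Hba-a1* and *Hba-a2* headed the 10 leading genes of the *Yap1* cKO node-like cells, ahead of *Foxj1* and *Noto*. The source of these UMIs was not tested, and it limits the values of these cells. Both pools are labelled female, yet 51.6% of control and 15.6% of *Yap1* cKO cells carried Y-linked UMIs without *Xist*, so results between the libraries are also given within Y-bearing and *Xist*-bearing cells where these differ.

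*Yap1* itself was lost from the embryonic cells of the *Yap1* cKO. Its UMIs fell from 607 to 25 in epiblast-like cells. As UMIs per 1000000 UMIs of a population (CPM) this was a fall from 29.4 (27.1 to 31.8) to 1.11 (0.718 to 1.64), a ratio of 0.0378 (0.0243 to 0.0563), and the embryonic cells together gave 0.0563 (0.0445 to 0.0703). The remaining level ran from 0 UMIs in the 15 *Cer1*-high embryonic cells to 3.37 CPM in *Foxf1* and *Hand1* mesoderm-like and 3.43 CPM in blood and endothelial progenitor-like cells. The interval of the *Cer1*-high cells, 0 to 3.48 CPM, overlapped those of the latter populations (1.96 to 5.39 and 1.48 to 6.76 CPM).

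The 83 remaining UMIs lay in 47 of 525 embryonic cells, of which 28 held 1 UMI and 11 held 3 to 5. In the control, 68 of 506 embryonic cells had no *Yap1* UMI, and the median was 2. After each cell was thinned to 38000 UMIs, 4.73% (3.06 to 6.96) of the *Yap1* cKO embryonic cells had a *Yap1* UMI. A UMI of *Ttr*, a visceral endoderm gene that these cells should lack, was found in 6.71% (4.69 to 9.25). The share alone therefore does not set the *Yap1* UMIs apart from free RNA. *Ttr* is the more abundant gene, at 3530 CPM in visceral endoderm-like cells of this library against 28.2 CPM for *Yap1*. Relative to the visceral endoderm of the same library, however, epiblast-like cells held 3.93% of the *Yap1* level and 0.0465% of the *Ttr* level. The source of these UMIs was not tested, and which part of the gene the floxed allele removes is not given in the sources used here, so they may also come from retained sequence.

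*Tead2* was the leading TEAD gene of the embryonic cells. Its level was 206 (199.7 to 212) CPM in control epiblast-like cells and 213 (207 to 219) in *Yap1* cKO ones. It lay between 174 and 242 CPM over the 7 embryonic populations of the control and between 166 and 275 CPM over those of the *Yap1* cKO. The 6 embryonic populations other than blood and endothelial progenitor-like cells followed each other in the control with no neighbouring pair separated beyond its counting interval. More distant ones were separated: control primitive streak-like cells held 241.5 (225.8 to 258) and nascent mesoderm-like cells 241.5 (227.4 to 256) CPM, above the epiblast-like interval. In the *Yap1* cKO the epiblast-like level was separated from its neighbour, primitive streak-like cells at 225 (216 to 235) CPM. *Tead2* was lower in ExE-like cells, at 134 and 132 CPM in control and *Yap1* cKO. Its lowest level was in VE-like cells, at 39.1 (34.1 to 44.6) and 32.5 (29.8 to 35.4) CPM, which was 0.19 and 0.153 times the epiblast-like level. AVE-like cells, gated by anterior markers among cells with visceral endoderm markers, did not share this low level. They held 176 and 169 CPM, or 4.51 (3.68 to 5.52) and 5.18 (4.48 to 5.98) times the VE-like level. In the control they also held less *Apoa1* (1111 against 5018 CPM) and *Ttr* (2392 against 3872 CPM) than VE-like cells. Whether this gate holds only anterior visceral endoderm was not tested.

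*Tead1* varied more among the embryonic lineages. Epiblast-like cells held 54.0 (50.8 to 57.2) CPM in the control, primitive streak-like cells 82.2, nascent mesoderm-like cells 113 and *Foxf1* and *Hand1* mesoderm-like cells 218 (206 to 230.5). Each of these levels was above the one before it beyond the counting interval of their ratio. The same order held in the *Yap1* cKO, at 47.2, 62.8, 94.8 and 166 CPM. *Foxf1* and *Hand1* mark posterior and extraembryonic mesoderm, and these cells thus had 4.04 (3.73 to 4.38) and 3.52 (3.21 to 3.85) times the *Tead1* level of the epiblast-like cells. Node-like cells, which are also formed through the streak, held 43.4 and 37.5 CPM, the lowest of the 10 populations in each library, although in neither separated from the epiblast-like level by the interval of the ratio. Blood and endothelial progenitor-like cells lay between, at 131 and 122 CPM. Outside the embryo proper, ExE-like cells held 179 and 159 CPM, AVE-like cells 153 and 147, and VE-like cells 107 and 104.

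*Tead4* and *Tead3* had their highest levels in extraembryonic populations. *Tead4* reached 65.8 (62.0 to 69.8) and 53.2 (49.3 to 57.4) CPM in ExE-like cells and 29.1 and 30.8 CPM in VE-like cells. Epiblast-like cells held 0.774 and 0.887 CPM, from 16 and 20 UMIs. After thinning to 38000 UMIs per cell, 2.0% of control epiblast-like cells had a *Tead4* UMI, below the 2.80% with a UMI of *Ttr*. This share was therefore not read as expression, although the epiblast-like level was 1.18% of that in ExE-like cells for *Tead4*, against 0.120% for the ExE gene *Elf5*. The ratio of ExE-like to epiblast-like cells, 85.0 (52.1 to 149), rests on these few UMIs. Other embryonic cells did hold *Tead4*: *Foxf1* and *Hand1* mesoderm-like cells held 14.3 and 12.7 CPM, with a UMI in 41.6% and 40.0% of thinned cells, and blood and endothelial progenitor-like cells held 14.2 and 16.7 CPM. *Tead3* was lower throughout, at 15.8 and 12.47 CPM in ExE-like cells, 17.7 and 8.99 in AVE-like cells and at most 6.005 in an embryonic population.

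**Figure D1:**
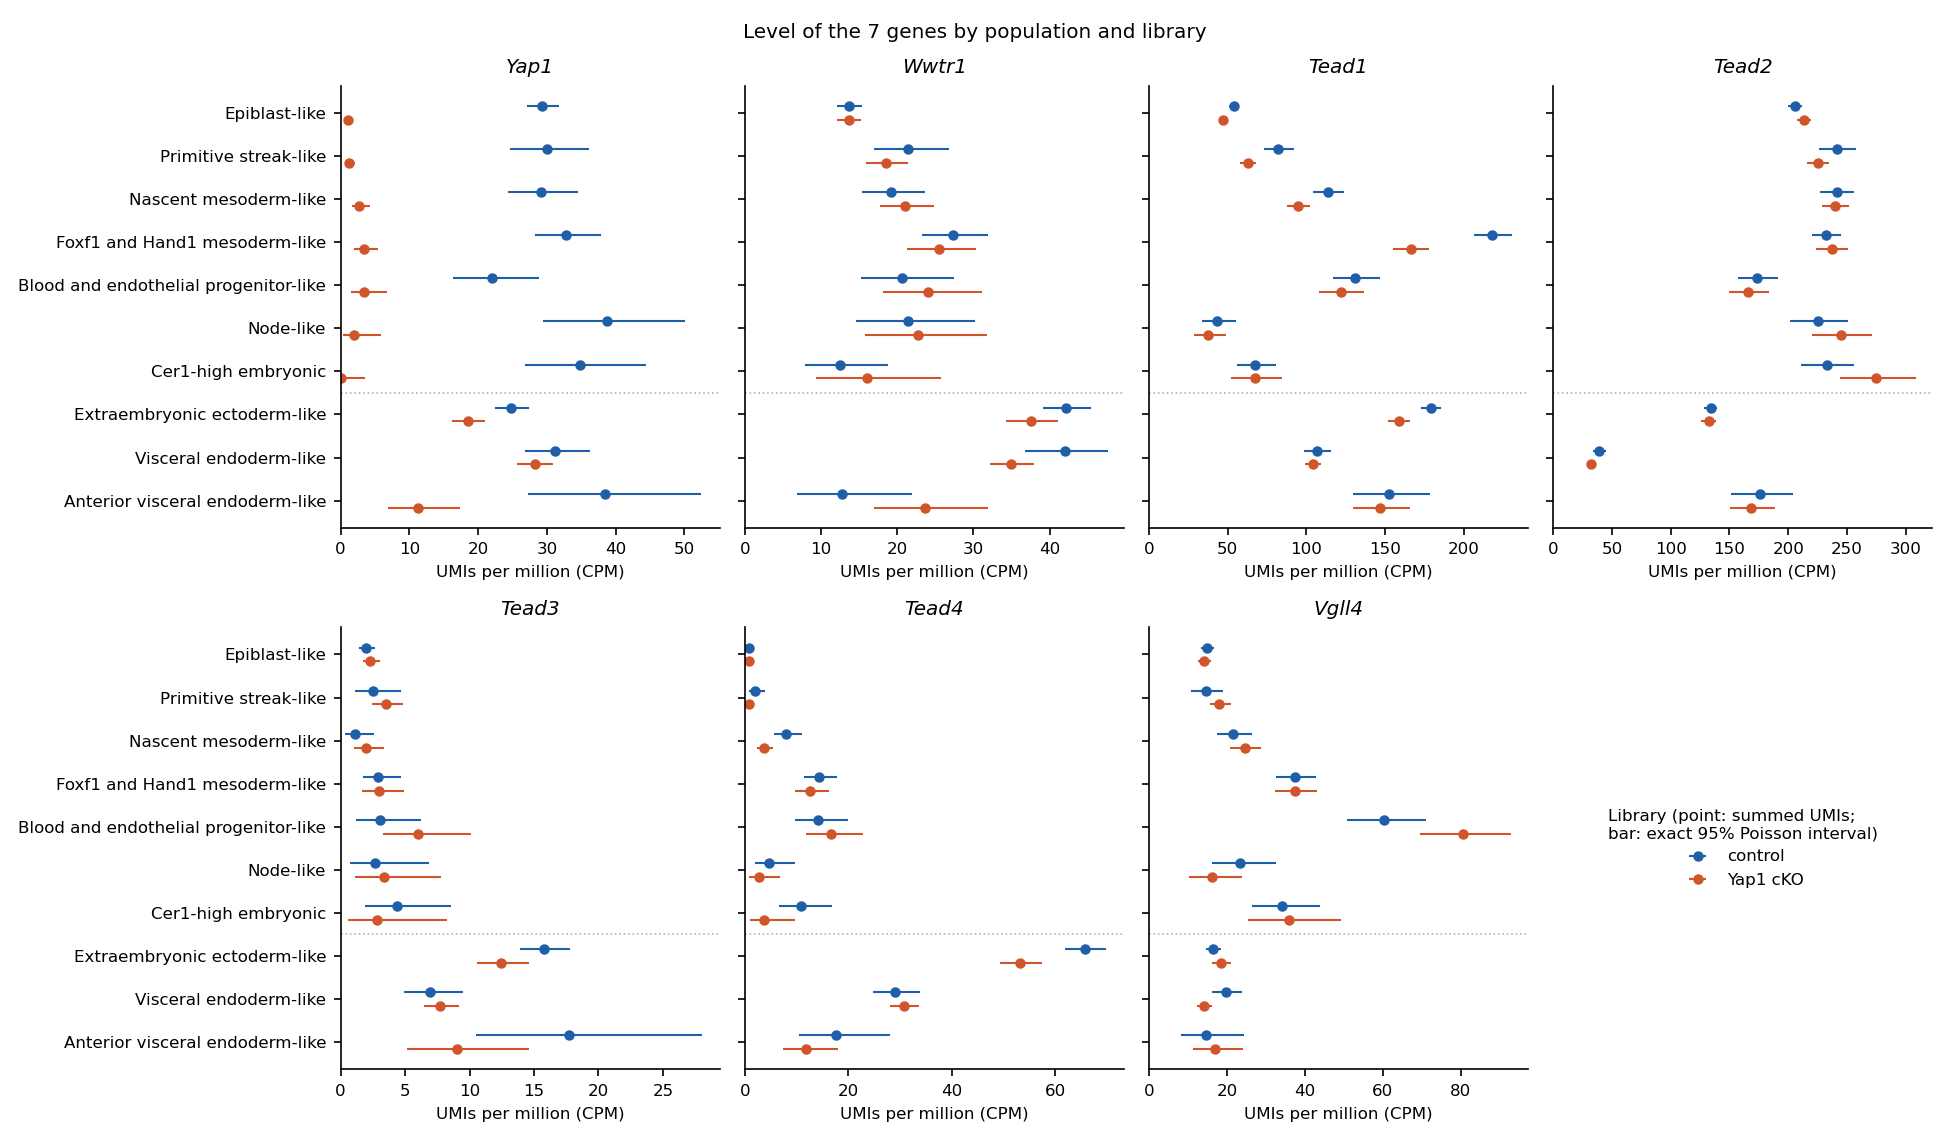
Level of each of the 7 genes (CPM, linear axis, a scale of its own for each gene) in the 10 populations of the control and the *Yap1* cKO library, with 95% Poisson intervals. *Tead2* fell to 39.1 CPM in control VE-like cells, *Tead1* peaked at 218 CPM in control *Foxf1* and *Hand1* mesoderm-like cells, and *Tead4* peaked at 65.8 CPM in control ExE-like cells.

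The make-up of the TEAD family differed between several lineages and was alike in others. Of all *Tead* UMIs of control epiblast-like cells, 78.4% (77.3 to 79.5) were *Tead2* and 20.6% *Tead1*, and division by transcript length gave 90.7% and 8.10%. Node-like cells, with 81.6% (77.5 to 85.2) *Tead2*, were close to this. Primitive streak-like cells had 73.6% (71.0 to 76.1) and *Cer1*-high embryonic cells 73.8% (70.0 to 77.3) *Tead2*, with overlapping intervals. In *Foxf1* and *Hand1* mesoderm-like cells the UMIs were split between 46.7% *Tead1* and 49.6% *Tead2*, and per length between 22.9% and 71.4%. On both scales *Tead2* led in each of the 7 embryonic populations of both libraries. By UMIs its lead in control *Foxf1* and *Hand1* mesoderm-like cells was not separated, with intervals of 47.7 to 51.6 for *Tead2* and 44.8 to 48.6 for *Tead1*. There, Y-bearing cells had 831 *Tead1* and 813 *Tead2* UMIs, and *Xist*-bearing cells 383 and 434.

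In ExE-like cells and in control VE-like cells the order of *Tead1* and *Tead2* differed between UMIs and the per length scale, which is not a correction. *Tead1* led *Tead2* in ExE-like cells by UMIs, with 45.3% against 34.0%, and followed it per length, with 21.5% against 47.3%. VE-like cells had 58.7% *Tead1* and 21.5% *Tead2* by UMIs and 31.8% and 34.2% per length, while per length *Tead1* led in the *Yap1* cKO, with 32.3% against 29.7%. *Tead4* made up 16.7% and 16.0% of the *Tead* UMIs of control ExE-like and VE-like cells, and 25.7% and 28.1% per length. The shares of UMIs in the *Yap1* cKO were 14.9% and 17.6%. AVE-like cells had 4.86% *Tead4* and 48.4% *Tead2* in the control, and *Tead2* led there on both scales in both libraries.

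**Figure D2:**
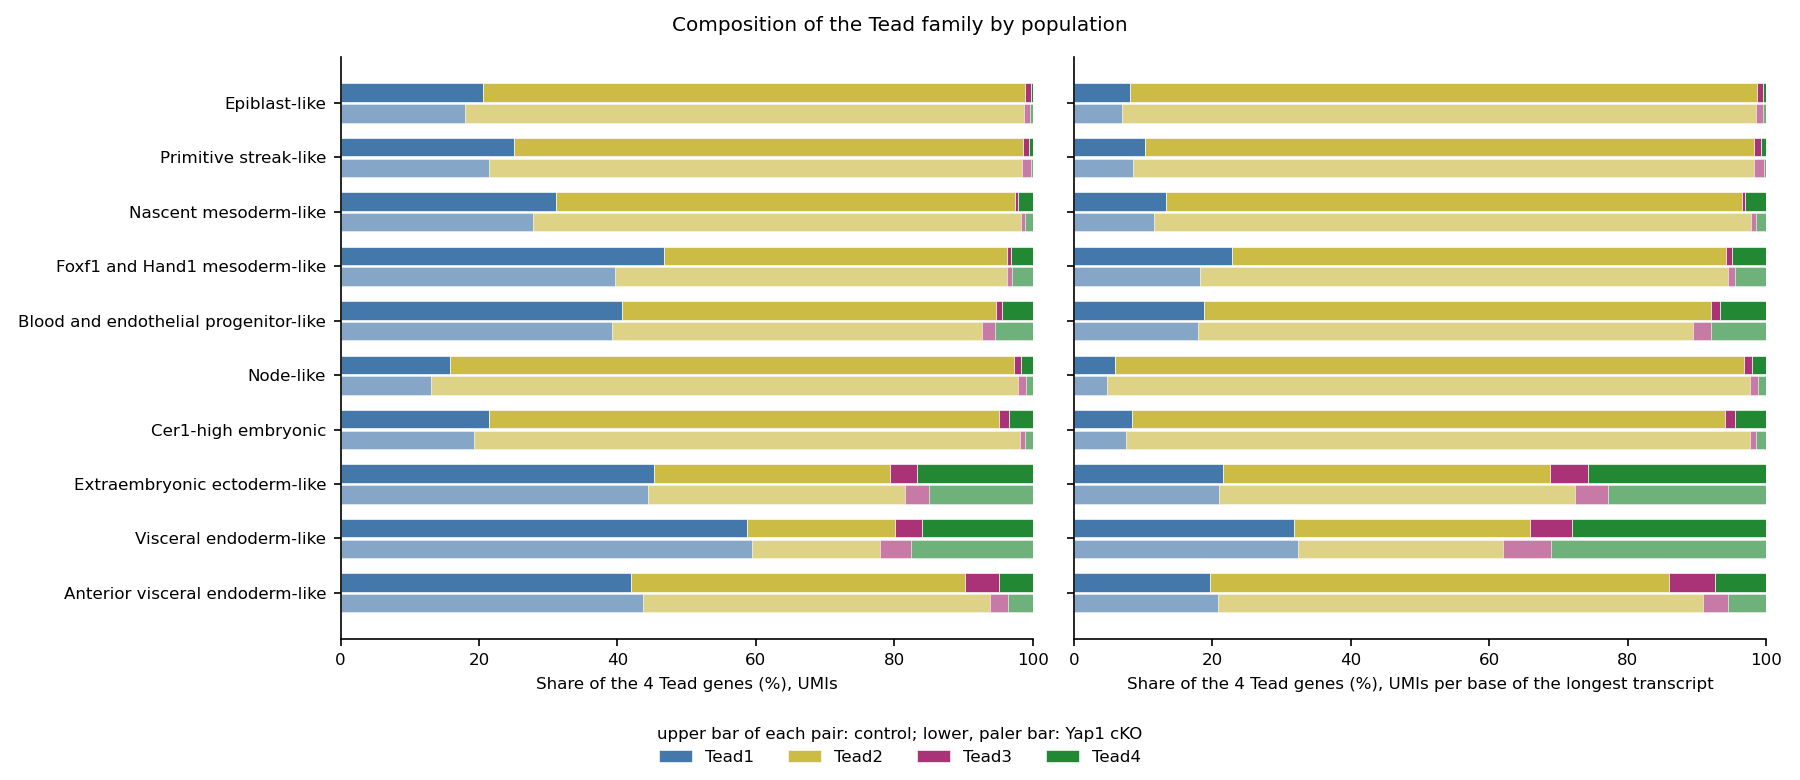
Share of *Tead1*, *Tead2*, *Tead3* and *Tead4* among all *Tead* UMIs (percent) in each population, by UMIs and after division by the longest transcript. *Tead2* took 78.4% of the UMIs of control epiblast-like cells and 21.5% of those of control VE-like cells.

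Among the partners of TEAD, *Yap1* had a narrower range of levels over the control populations than *Wwtr1*. Its level was 29.4 (27.1 to 31.8) CPM in epiblast-like cells and ran from 22.0 CPM in blood and endothelial progenitor-like cells to 38.8 CPM in node-like cells, with no neighbours in this order separated beyond their counting interval. More distant populations were separated: blood and endothelial progenitor-like cells held 0.748 (0.551 to 0.997) and ExE-like cells 0.846 (0.745 to 0.960) times the epiblast-like level. *Wwtr1*, in contrast, was at 42.2 (39.1 to 45.4) CPM in ExE-like and 42.0 (36.8 to 47.7) CPM in VE-like cells, and at 13.6 (12.1 to 15.3) CPM in epiblast-like cells. *Foxf1* and *Hand1* mesoderm-like cells were between these, at 27.3 CPM. AVE-like cells of the control held 12.8 (6.81 to 21.9) CPM, or 0.305 times the VE-like level, and those of the *Yap1* cKO 23.6 (17.0 to 31.9) CPM, or 0.674 times. These came from 13 and 42 UMIs, and the ratio of the libraries, 1.84 (0.971 to 3.74), was not separated from 1.

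Most coactivator UMIs were *Yap1* in the epiblast and *Wwtr1* in ExE-like and VE-like cells. *Yap1* made up 68.3% (65.1 to 71.3) of the *Yap1* and *Wwtr1* UMIs of control epiblast-like cells, 54.6% in *Foxf1* and *Hand1* mesoderm-like cells, 42.7% in VE-like cells and 37.1% (34.2 to 40.0) in ExE-like cells. AVE-like cells differed from these extraembryonic populations, with 75.0% (61.1 to 86.0) *Yap1* from 39 *Yap1* and 13 *Wwtr1* UMIs, the highest share of the 10 control populations. Per length the shares of *Yap1* were 65.7% in epiblast-like, 51.7% in *Foxf1* and *Hand1* mesoderm-like, 39.8% in VE-like, 34.4% in ExE-like and 72.7% in AVE-like cells. Relative to the TEAD genes, coactivator UMIs were most frequent in VE-like cells, with 40.2 (35.8 to 45.2) per 100 *Tead* UMIs in the control, against 16.4 (15.2 to 17.6) in epiblast-like and 17.0 in ExE-like cells. Per length these were 44.0, 12.7 and 16.4.

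*Vgll4*, the antagonist, was highest in blood and endothelial progenitor-like cells. Control cells of this kind held 60.3 (50.7 to 71.1) CPM and *Yap1* cKO ones 80.6 (69.5 to 93.0) CPM, which was 4.05 (3.29 to 4.96) and 5.68 (4.72 to 6.82) times the epiblast-like level. *Foxf1* and *Hand1* mesoderm-like cells followed at 37.5 and 37.4 CPM and *Cer1*-high embryonic cells at 34.3 and 35.9. The remaining 7 populations of the control lay between 14.6 and 23.4 CPM. Of the other Vestigial-like genes, *Vgll1* had 14 and 19 UMIs in ExE-like cells and at most 1 elsewhere, *Vgll2* had at most 2 in a population, and *Vgll3* had at most 17, in epiblast-like cells of the control.

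Each population of the control library was also set against the epiblast-like cells over all genes with at least 100 UMIs. In primitive streak-like cells 12.3% of these genes were past 1.5-fold and 2 of 5 members were, *Wwtr1* and *Tead1*, both higher. Nascent mesoderm-like cells had 26.4% of genes and 1 of 5 members past it (*Tead1*, higher), node-like cells 26.7% and 2 of 5 (*Wwtr1* and *Vgll4*, higher) and *Cer1*-high embryonic cells 27.5% and 1 of 5 (*Vgll4*, higher). In *Foxf1* and *Hand1* mesoderm-like cells 30.3% of genes and in blood and endothelial progenitor-like cells 36.4% were past it, and 3 of 5 members in each, *Wwtr1*, *Tead1* and *Vgll4*, all higher.

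The extraembryonic populations differed from the epiblast over more of their genes. AVE-like cells had 52.8% of genes and 1 of 5 members past 1.5-fold (*Tead1*, higher). ExE-like cells had 43.7% and 5 of 7, with *Wwtr1*, *Tead1*, *Tead3* and *Tead4* higher and *Tead2* lower, and VE-like cells had 56.5% and 4 of 6, with *Wwtr1*, *Tead1* and *Tead4* higher and *Tead2* lower. *Tead3* in the ExE and *Tead4* in the ExE and the VE reached the minimum through the population in which they were high, so nothing is read from the counts of these populations. The median gene of VE-like cells was at -0.13 on the log2 scale against epiblast-like cells, so that the differences of the VE are relative to this shift.

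Of the extraembryonic populations, where the driver is not meant to act, VE-like and ExE-like cells kept most of their *Yap1*. The ratio was 0.902 (0.756 to 1.08) in VE-like cells, from 31.2 to 28.2 CPM, and 0.745 (0.632 to 0.877) in ExE-like cells, from 24.8 to 18.5 CPM. Within Y-bearing ExE-like cells the levels were 26.1 and 16.2 CPM and within *Xist*-bearing ones 22.4 and 20.4, so the size of this difference varied with the kind of cell compared. In VE-like cells the direction varied as well: Y-bearing cells held 50.4 and 32.0 CPM, from 22 and 12 cells, and *Xist*-bearing ones 23.3 and 27.9 CPM, from 46 and 170 cells, so the pooled ratio rests on an unequal mix of these cells. AVE-like cells were apart from both, with a level of 38.4 (27.3 to 52.5) CPM in control cells against 11.2 (6.86 to 17.4) CPM in *Yap1* cKO cells, from 39 and 20 UMIs. Their ratio of 0.293 (0.162 to 0.514) lay between those of the embryonic and the other extraembryonic populations. Whether all cells of this gate are extraembryonic was not tested.

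No rise of *Wwtr1* was detectable in embryonic cells. Its level was 13.6 CPM in both libraries in epiblast-like cells, a ratio of 0.999 (0.847 to 1.18), and that of the embryonic cells together was 1.01 (0.909 to 1.11). These bounds cover counting error only and set no limit on differences between embryos. The ratio of the embryonic cells together also mixes populations whose numbers of cells differ between the libraries. Among the 7 embryonic populations the ratio ran from 0.863 in primitive streak-like cells to 1.28 in *Cer1*-high cells, and each counting interval held 1. In Y-bearing epiblast-like cells the levels were 13.9 (11.8 to 16.4) and 11.3 (8.72 to 14.5) CPM. In *Xist*-bearing ones they were 12.47 (10.3 to 15.0) and 14.0 (12.3 to 16.0) CPM. The direction thus differed with the kind of cell, and the intervals of each pair overlapped.

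The coactivator total of the embryonic cells was therefore lower. *Yap1* and *Wwtr1* together went from 43.0 (40.2 to 45.9) to 14.7 (13.2 to 16.4) CPM in epiblast-like cells and from 60.1 to 28.9 CPM in *Foxf1* and *Hand1* mesoderm-like cells. Per 100 *Tead* UMIs this was a change from 16.4 to 5.58 (4.98 to 6.24) in epiblast-like cells and from 12.9 to 6.91 in the mesoderm, while VE-like cells held 40.2 and 36.1. Per length the changes were from 12.7 to 4.54 in epiblast-like cells and from 12.6 to 6.65 in the mesoderm. *Vgll4* UMIs per coactivator UMI went from 0.346 (0.303 to 0.395) to 0.964 (0.824 to 1.13) in epiblast-like cells and from 1.41 (1.09 to 1.85) to 2.94 (2.20 to 3.96) in blood and endothelial progenitor-like cells. In ExE-like cells the corresponding values were 0.247 and 0.329. Per length the *Vgll4* values were 0.801 and 2.08 in epiblast-like, 3.20 and 6.37 in blood and endothelial progenitor-like and 0.5502 and 0.729 in ExE-like cells.

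**Figure D3:**
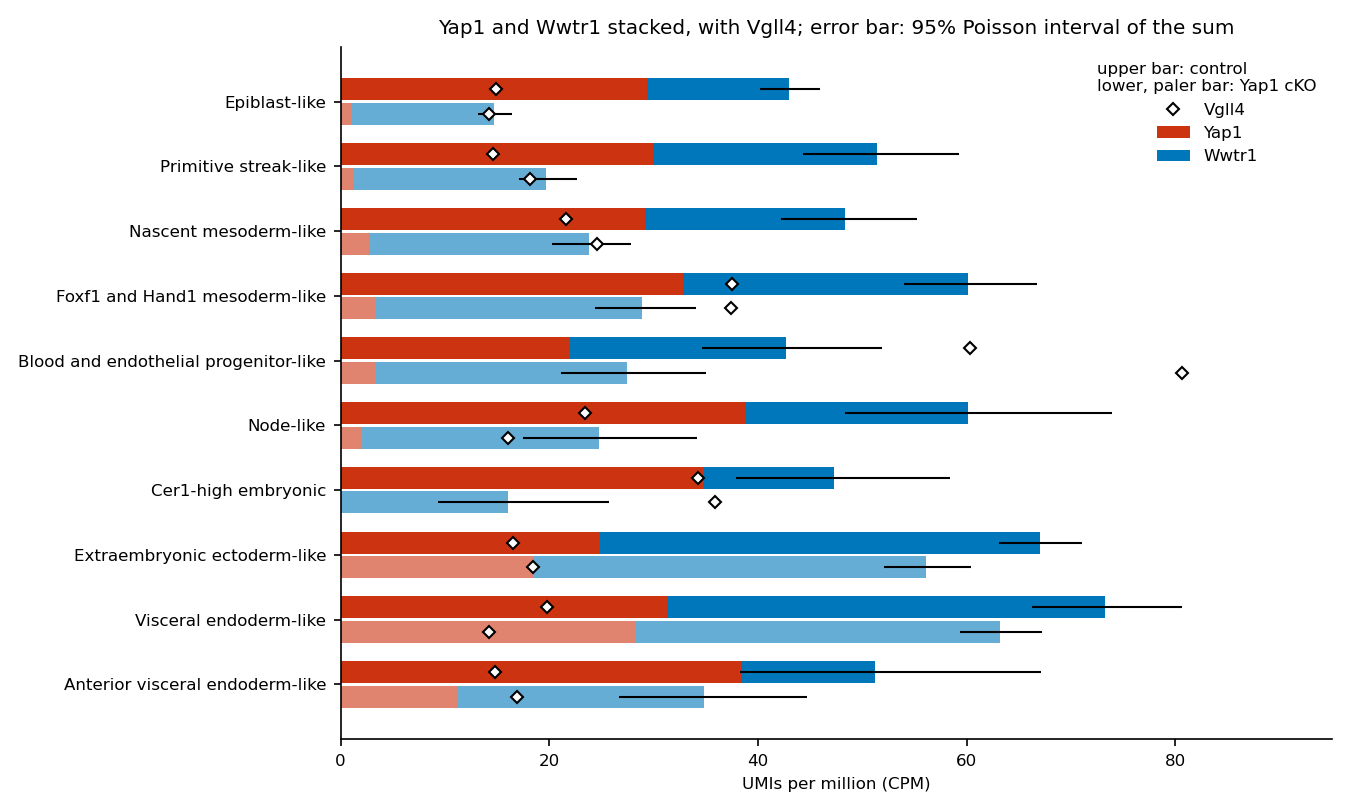
*Yap1* and *Wwtr1* stacked (CPM, axis from 0) with *Vgll4* as a diamond, in control (upper bar) and *Yap1* cKO (lower, paler bar) cells of each population, with the 95% Poisson interval of the sum. The sum fell from 43.0 to 14.7 CPM in epiblast-like cells, where *Wwtr1* made up nearly the whole of the paler bar, and by UMIs *Vgll4* lay above the sum in blood and endothelial progenitor-like cells of both libraries.

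Apart from *Yap1*, no member lay past 1.5-fold between the libraries in any of the 10 populations among those with at least 100 UMIs. These numbered 4 in epiblast-like, primitive streak-like, nascent mesoderm-like and blood and endothelial progenitor-like cells, 5 in *Foxf1* and *Hand1* mesoderm-like cells, 6 in ExE-like and VE-like cells, 3 in *Cer1*-high embryonic cells and 2 in node-like and AVE-like cells. Of all genes tested in the same way, 3.15% of those in epiblast-like cells were past this fold, and primitive streak-like cells had 4.32%, nascent mesoderm-like cells 3.14%, *Foxf1* and *Hand1* mesoderm-like cells 4.34%, ExE-like cells 2.3% and VE-like cells 4.17%, so 0 of 4 to 0 of 6 members does not set the group apart. The shares were 6.85% in blood and endothelial progenitor-like, 5.89% in node-like, 8.27% in *Cer1*-high embryonic and 5.86% in AVE-like cells. In the sum of all embryonic cells, where 3.79% of 13030 genes were past the fold, *Tead4* was the 1 of 6 members besides *Yap1* past it, going from 5.01 to 3.32 CPM, a ratio of 0.663 (0.536 to 0.819). That sum mixes populations whose numbers of cells differ between the libraries. Within nascent mesoderm-like cells *Tead4* went from 36 to 24 UMIs (7.95 to 3.64 CPM), a ratio of 0.458 (0.261 to 0.789) that was past 1.5-fold below the minimum of 100 UMIs, and within *Foxf1* and *Hand1* mesoderm-like cells its ratio was 0.884 (0.628 to 1.24).

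The ratio of *Tead2* in epiblast-like cells was 1.04 (0.994 to 1.08), and the 4 *Tead* genes together were at 263 and 264 CPM. *Tead1* was lower in the *Yap1* cKO, by less than 1.5-fold, in 4 embryonic populations whose counting intervals lay below 1. The ratio in epiblast-like cells was 0.875 (0.804 to 0.953), and primitive streak-like cells had 0.764 (0.665 to 0.880). Further along, nascent mesoderm-like cells had 0.835 (0.742 to 0.940) and *Foxf1* and *Hand1* mesoderm-like cells 0.762 (0.697 to 0.832). For comparison, the median ratio of all genes tested was between 0.961 and 0.988 in these 4 populations, and that of the genes spanning over 200 kb, as *Tead1* does, was between 0.933 and 0.974. *Tead1* rises along these populations, whose gates filled differently in the libraries. Of the epiblast-like and primitive streak-like cells, 20 of 304 control and 42 of 330 *Yap1* cKO cells lay within 0.25 of the streak threshold. Whether the position of cells within the gates bears on these ratios was not tested. Blood and endothelial progenitor-like, node-like and *Cer1*-high cells had ratios of 0.930, 0.863 and 0.995, with intervals that held 1.

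The lower *Tead1* of the mesoderm was seen with either kind of sex-linked UMIs. *Foxf1* and *Hand1* mesoderm-like cells held 234 CPM (control) and 165 CPM (*Yap1* cKO) among Y-bearing cells, and 209 and 168 among *Xist*-bearing ones. The epiblast-like levels were 51.9 and 42.3 among Y-bearing and 56.5 and 49.3 among *Xist*-bearing cells. Nascent mesoderm-like levels were 108 and 87.7 among Y-bearing cells, from 27 and 6 cells, and 118 and 95.1 among *Xist*-bearing ones. Among primitive streak-like cells, Y-bearing ones held 65.0 (53.5 to 78.3) and 59.2 (50.8 to 68.6) CPM. *Xist*-bearing ones held 93.1 (79.7 to 108) and 63.6 (57.9 to 69.9) CPM, so the size of this difference varied with the kind of cell compared. In ExE-like cells, by contrast, the ratio of 0.887 (0.837 to 0.938) did not keep its direction: Y-bearing cells held 186 and 124 CPM and *Xist*-bearing cells 164 and 169.6. The ratio in these *Xist*-bearing cells, 1.03 (0.945 to 1.13), was not separated from 1. With 3 and 4 embryos per pool, the spread of *Tead1* between embryos is not known, and whether the difference exceeds it was not tested.

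The make-up of the family in the mesoderm differed accordingly. *Tead1* went from 46.7% (44.8 to 48.6) to 39.7% (37.6 to 41.8) of the *Tead* UMIs of *Foxf1* and *Hand1* mesoderm-like cells and *Tead2* from 49.6% to 56.6%. In VE-like cells the *Tead1* share was 58.7% and 59.4%, and in AVE-like cells 41.9% and 43.6%.

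**Figure D4:**
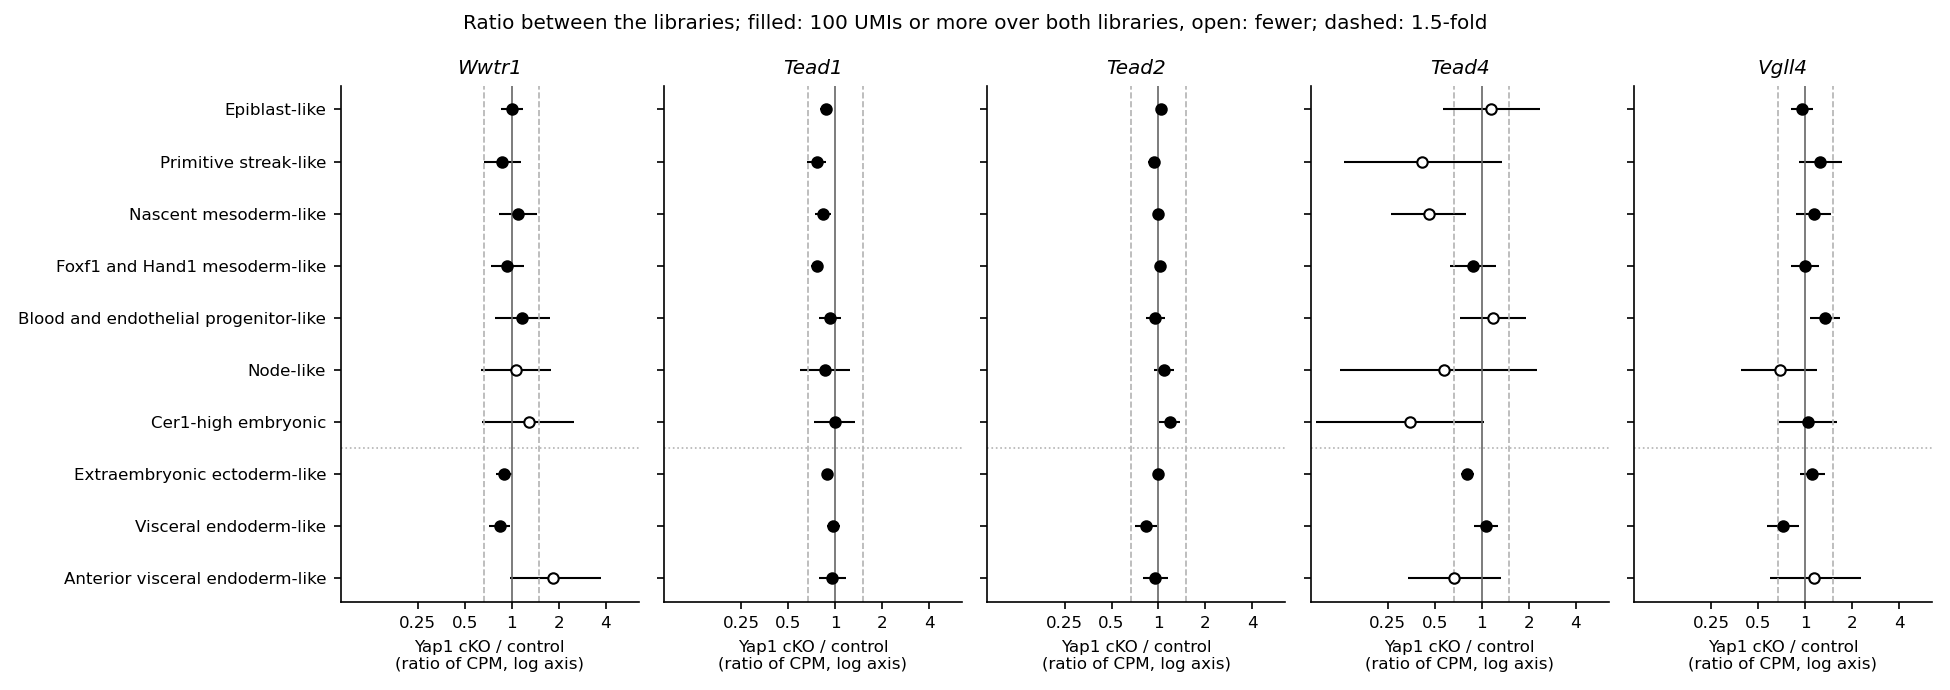
Ratio of *Yap1* cKO to control (log axis) for *Wwtr1*, *Tead1*, *Tead2*, *Tead4* and *Vgll4* in each population, with 95% counting intervals. *Tead1* lies at 0.762 in *Foxf1* and *Hand1* mesoderm-like cells, and *Wwtr1* lies at 0.999 in epiblast-like cells.

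Ratios of similar size, with intervals that did not hold 1, were also found where the driver is not meant to act. In ExE-like cells *Tead4* was at 0.809 (0.734 to 0.891) and *Tead3* at 0.791 (0.645 to 0.968), beside the 0.887 of *Tead1*. In VE-like cells *Tead2* was at 0.832 (0.709 to 0.978) and *Wwtr1* at 0.834 (0.715 to 0.975), and neither kept its direction in both Y-bearing and *Xist*-bearing cells. The *Wwtr1* ratio in *Xist*-bearing VE-like cells, 1.01 (0.836 to 1.24), was not separated from 1. *Tead2* was higher in *Cer1*-high embryonic cells, at 1.18 (1.01 to 1.37).

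*Vgll4* was 14.9 and 14.2 CPM in epiblast-like cells, a ratio of 0.953 (0.812 to 1.12). Its ratio was 1.34 (1.07 to 1.68) in blood and endothelial progenitor-like cells, from 25 cells in each library, and 0.718 (0.570 to 0.908) in VE-like cells, at 19.8 and 14.2 CPM. Both were short of 1.5-fold. In the epiblast-like cells that had lost *Yap1*, *Wwtr1*, *Vgll4* and *Tead2* all lay within 1.5-fold. Whether the motif in the windows printed above bears on these levels was not tested.

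In single cells, thinned to 38000 UMIs each, epiblast-like cells mostly had more *Tead2* than *Tead1*. The median was 8 UMIs of *Tead2* and 2 of *Tead1* in both libraries, and *Tead1* exceeded *Tead2* in 6 of 250 control and 7 of 219 *Yap1* cKO cells. By UMIs, *Tead1* exceeded *Tead2* in *Foxf1* and *Hand1* mesoderm-like cells in 40.3% (29.2 to 52.1) and 30% (18.8 to 43.2) of cells, in ExE-like cells in 56.2% and 55.8% and in VE-like cells in 75.8% and 78.2%. Per length, *Tead1* exceeded *Tead2* in 2.60% and 3.33% of the *Foxf1* and *Hand1* mesoderm-like, 16.0% and 15.8% of the ExE-like and 60.6% (47.8 to 72.4) and 65.5% (57.9 to 72.5) of the VE-like cells. Both genes were found together in 98.7% of control *Foxf1* and *Hand1* mesoderm-like cells and 96.4% of control ExE-like cells, so that both were measured within single cells of these populations. At least 3 *Tead* genes had a UMI in 90.5% (85.1 to 94.5) of control ExE-like, 50% of VE-like and 9.60% (6.25 to 13.9) of epiblast-like cells.

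With *Yap1* lost, cells without any detected coactivator UMI became the most frequent kind in the epiblast. Neither *Yap1* nor *Wwtr1* was seen in 23.2% (18.1 to 28.9) of thinned control and 55.3% (48.4 to 62.0) of thinned *Yap1* cKO epiblast-like cells. *Wwtr1* without *Yap1* was seen in 12.8% and 41.6%, and both together in 24.8% and 0.913%. At this depth an absent UMI does not show an absent transcript: *Wwtr1* had a UMI in 37.6% of thinned and 62.6% of unthinned control epiblast-like cells. VE-like cells, which kept *Yap1*, had neither gene in 13.6% and 13.8% of cells.

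**Figure D5:**
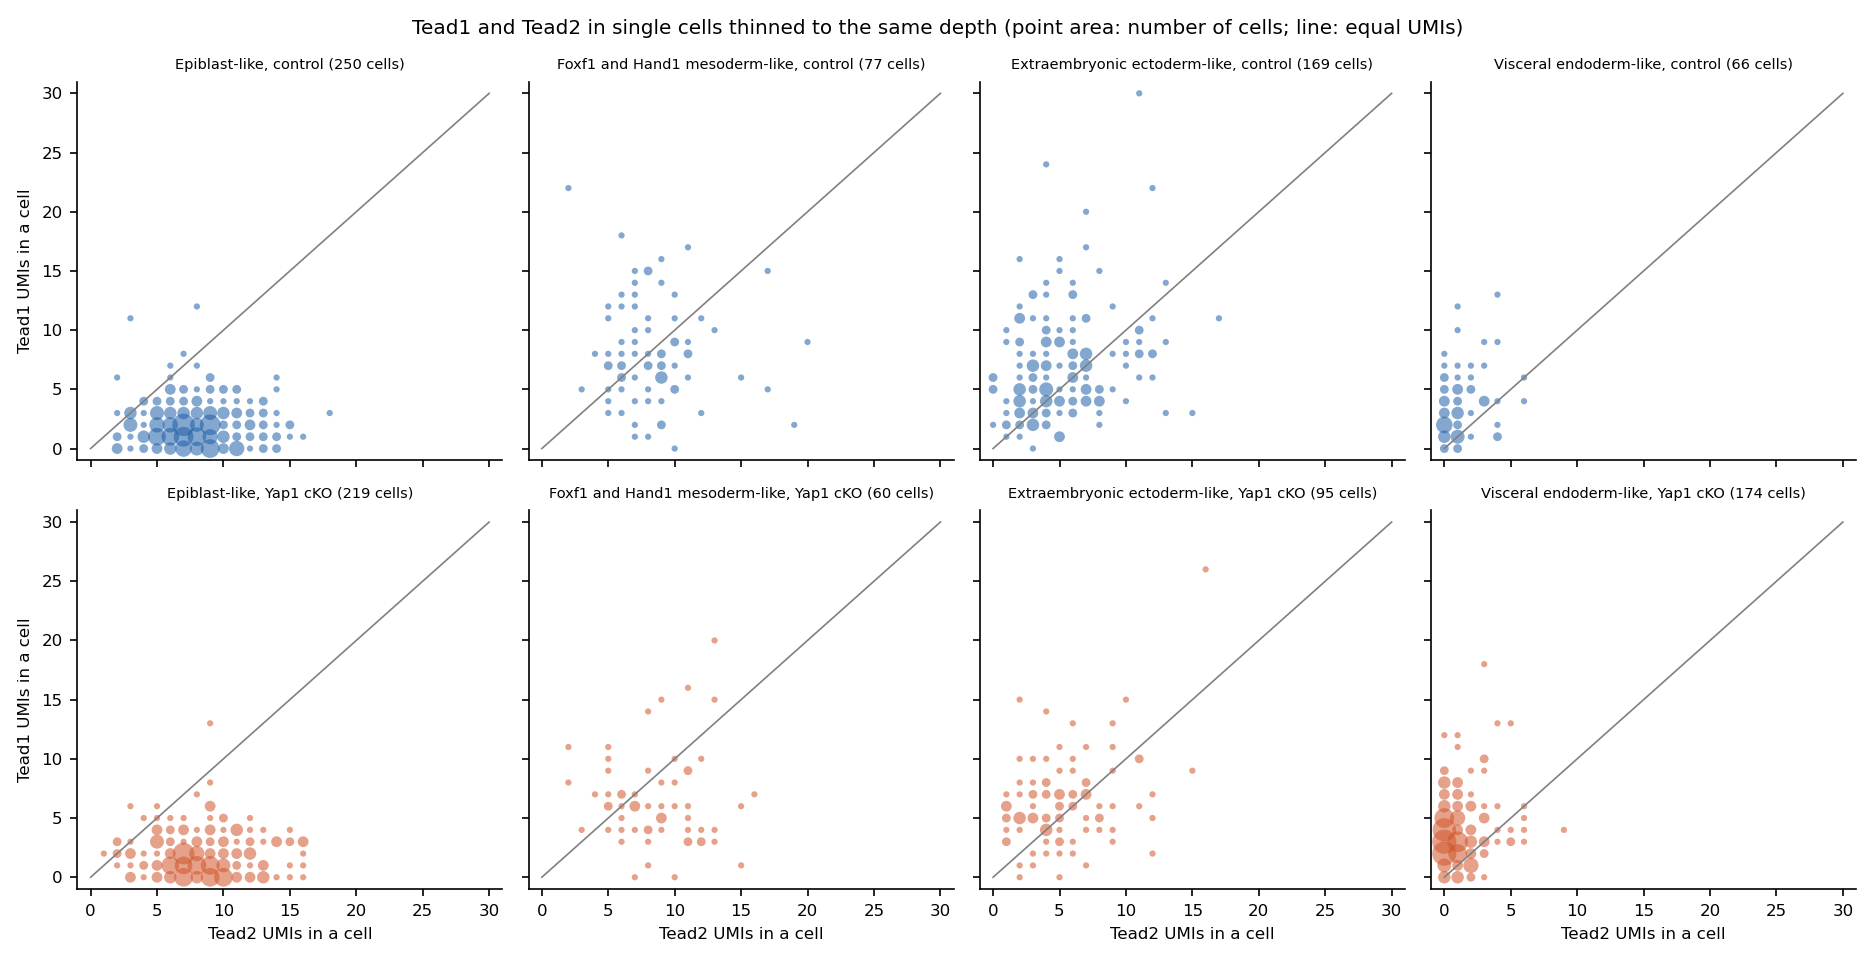
Single cells after thinning to 38000 UMIs, by their *Tead1* and *Tead2* UMIs, in control and *Yap1* cKO. Epiblast-like, *Foxf1* and *Hand1* mesoderm-like, ExE-like and VE-like cells are shown, with point area for the number of cells. By UMIs, *Tead1* exceeded *Tead2* in 2.40% of control epiblast-like cells and 75.8% of control VE-like cells.

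Genes that act with the members were taken from lists chosen with earlier results known, and are described by counts and medians. Of the other TEAD cofactors, 0 of 4 with at least 100 UMIs were past 1.5-fold in epiblast-like cells, with a median ratio of 0.979 against 0.968 over all genes. *Ncoa1* and *Ncoa2*, nuclear receptor coactivators that can bind TEAD, had ratios of 1.11 and 0.951. Over all genes with at least 100 UMIs, 1.99% were past 1.5-fold lower and 1.16% past it higher in these cells. Of 15 Hippo kinases and regulators, 2 were lower and 0 higher, with a median ratio of 0.850. They were the kinase gene *Lats2* (8.95 and 3.77 CPM) and *Wwc2*, a scaffold of the pathway (41.7 and 23.7 CPM). Of 14 genes of YAP1 binding and turnover, 2 were lower and 0 higher, with a median of 0.941: *Amotl2*, an angiomotin that holds YAP1 at junctions (21.1 and 6.08 CPM), and the phosphatase gene *Ptpn14* (22.7 and 11.9 CPM).

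Genes known to respond to YAP1 and TEAD were lower as a group in the epiblast. This list holds *Ccn1*, *Ccn2*, *Amotl2*, *Ptpn14* and *Wwc2*, which the paper had already reported as lower in embryonic cells of these libraries. The counts of this and the preceding lists are therefore no independent support. In epiblast-like cells 8 of 15 were past 1.5-fold lower and 0 higher, and the median ratio was 0.619. *Ccn1* and *Ccn2*, secreted matricellular proteins, had ratios of 0.156 and 0.619, the LIM protein gene *Ajuba* 0.416 and the kinase gene *Nuak2* 0.542. The other 4 were *Amotl2*, *Lats2*, *Ptpn14* and *Wwc2*, which are also in the lists above. *Foxf1* and *Hand1* mesoderm-like cells had 7 of 11 lower and 0 higher, against 2.69% and 1.65% of all genes there, with a median of 0.615. In ExE-like and VE-like cells, where *Yap1* was largely kept, 0 of 16 and 0 of 12 were past the fold, against 2.3% and 4.17% of all genes. The medians there were 0.943 and 0.980. In the sum of all extraembryonic cells, which mixes these populations in unequal numbers, 7 of 17 were lower and 1 higher. Of all genes in that sum, 17.9% were past the fold in either direction. The cause of these differences was not tested.

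The genes whose pattern over the 10 control populations was most like that of a member were found among 10601 genes by Pearson's r of log2(CPM + 1). The points share 1 library and rest on unequal numbers of cells, so r is a description. *R3hcc1* (r = 0.986), *Tmsb10* (0.959) and *Ddx41* (0.958) were most like *Tead2*, and their r in the *Yap1* cKO library was 0.947, 0.953 and 0.855. *Jcad* (0.917), *Zfpm1* (0.904) and *Abitram* (0.902) were most like *Tead1*, with 0.940, 0.924 and 0.417 in the *Yap1* cKO. The nearest to *Tead4* were *Ergic2* (0.962), *Lmf2* (0.960) and *S100a11* (0.948), with 0.777, 0.873 and 0.903, and to *Tead3* the keratin gene *Krt19* (0.965), *Rnf125* (0.960) and *Serpinb6a* (0.950), with 0.774, 0.876 and 0.758.

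For the partners, *Lifr* (0.968), *Maml1* (0.904) and *Apip* (0.901) were most like *Vgll4*, with 0.869, 0.651 and 0.885 in the *Yap1* cKO. *Gosr2* (0.929), *Gm26542* (0.924) and *Rassf8* (0.922) were most like *Wwtr1*, with 0.639, 0.685 and 0.916. *Narf* (0.954), *Acadl* (0.948) and *Ppp1r16a* (0.935) were most like *Yap1* in the control, and their r was -0.181, -0.354 and 0.114 in the library where *Yap1* was lost from the embryonic cells. Among the members themselves, r was 0.716 and 0.812 for *Tead3* with *Tead4*, 0.704 and 0.798 for *Tead1* with *Tead4*, and -0.635 and -0.665 for *Wwtr1* with *Tead2*, in control and *Yap1* cKO.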

How the data were processed

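Cells of 4 control and 3 *Yap1* cKO embryos at E7 were pooled within each genotype and measured in a 10x Genomics 3′ library per pool. The authors counted UMIs with Cell Ranger 7.1.0 against mm10 and deposited the UMI counts per gene and barcode. Free RNA removal by SoupX was not repeated.

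Barcodes with at least 5000 detected genes and at most 10% mitochondrial UMIs were kept (791 of 1829 and 864 of 1897), and 1 and 4 doublets called by Scrublet were left out. No kept barcode was shared between the libraries. Cells were gated by the mean of log2(1 + CPM/10) over the markers of a population, with thresholds set after the data were seen. *Fgf8* and *Wnt3* were left out of the streak score. Where a cell passed several gates, the later one in a fixed order was used. In all, 14 and 13 cells with mixed and 3 and 1 with too few markers were left out. UMIs were summed per population and library. CPM have exact Poisson, ratios conditional binomial and shares Clopper-Pearson 95% intervals, checked on simulated counts. They cover counting error only. A ratio past 1.5-fold was called among genes with at least 100 UMIs. For shares of cells, each cell was thinned to 38000 UMIs and shallower cells were left out.

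The members and gene lists were chosen with earlier results of these data known. Genes named beside the members were list genes past 1.5-fold in epiblast-like cells or binding TEAD, and the 3 genes most like each member over the control populations, among genes reaching 10 CPM. The other lists held TEAD cofactors, Hippo kinases and regulators, YAP1 binding and turnover genes and YAP1 and TEAD response genes. The alternatives changed the gene minimum (2000 or 6000), the mitochondrial limit (5%), doublets, gates, scaling (edgeR TMM, or without abundant genes), the weight of cells, free RNA (0.696% and 0.541% subtracted) and the cells used (Y-bearing or *Xist*-bearing). Python 3.11.15, scanpy 1.11.5, scipy 1.17.1, R 4.3.3 and edgeR 4.0.16 were used, with gene models of GENCODE M21 and upstream sequences of RefSeq GRCm38.p6.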

Additional observations from a re-analysis of the deposited data

How the results depend on the processing

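No paired analysis was possible because each genotype has 1 library and the labels share a single replicate number, and for the same reason no library could be left out. Of 1009 ratios between the libraries under the alternatives, 950 moved by less than their counting interval, 55 moved by more and 4 whose interval did not hold 1 reversed. Some of these could hardly move. Keeping the 1 and 4 doublets gave 84 of the 950. Another 8 came from leaving out embryonic cells over 200 CPM of visceral endoderm genes, of which there were 0. Of 1398 ratios between populations these numbers were 1310, 84 and 4.

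All of these reversals came from splitting the cells by sex-linked UMIs. Apart from *Tead2* in VE-like cells, each reversed value had a counting interval that held 1. In Y-bearing cells alone, *Tead1* in *Foxf1* and *Hand1* mesoderm-like against epiblast-like control cells was 4.51, *Vgll4* in blood and endothelial progenitor-like cells 5.19, *Tead4* in ExE-like cells 339.6, and the *Tead2* share of VE-like cells 17.1%. The ratios of *Yap1* cKO to control in epiblast-like cells were 0.813 for *Wwtr1* and 0.964 for *Tead2*. Reversals there were *Tead2* between the libraries in VE-like cells (1.86), *Vgll4* in ExE-like against epiblast-like *Yap1* cKO cells (0.989) and *Tead4* in nascent mesoderm-like and *Cer1*-high against epiblast-like *Yap1* cKO cells (0 and 0). In *Xist*-bearing cells alone, *Tead1* in the mesoderm was 3.70, *Wwtr1* and *Tead4* in ExE-like cells 3.74 and 48.5, the *Tead2* shares of epiblast-like and ExE-like cells 77.1% and 37.0%, and the *Tead2* ratio in epiblast-like cells 1.08. Reversals were *Tead1* in ExE-like cells (1.03, 0.945 to 1.13), *Wwtr1* in VE-like cells (1.01, 0.836 to 1.24) and *Yap1* over all extraembryonic cells (1.03, 0.878 to 1.21). *Tead3* in blood and endothelial progenitor-like against epiblast-like *Yap1* cKO cells also reversed (0.628, 0.0734 to 2.42). The cause was not tested. Node-like cells of the *Yap1* cKO gave no value in Y-bearing cells, since 0 of these 17 cells were Y-bearing, against 13 in the control.

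Assigning each cell to its highest standardised marker score gave a *Yap1* ratio of 0.0786 over all embryonic cells. Division by transcript length, added after seeing the data, gave *Tead2* shares of 90.7%, 47.3% and 34.2% in epiblast-like, ExE-like and VE-like cells and a *Tead4* share of 25.7% in ExE-like cells. With a minimum of 20 or 400 UMIs, 1422 or 87 genes were past 1.5-fold in epiblast-like cells, against 355. Without thinning, 62.6% of control epiblast-like cells had a *Wwtr1* UMI. Over 12 alternatives the *Tead1* ratio stayed between 0.814 and 0.900 in epiblast-like and between 0.706 and 0.806 in *Foxf1* and *Hand1* mesoderm-like cells.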
